A study of Mus musculus with 16 samples.

Results

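Cultures made resistant to cytarabine from 3 mouse lines of T-ALL, an acute leukaemia of T-cell precursors, were compared with the parental culture of the same line, gene by gene. These pairs hold 6 of the 16 RNA-seq libraries of the study and were chosen by their drug and line labels alone. The derivatives, 3 cultures, were labelled as treated with cytarabine and resistant to it, and the parental cultures of the 3 lines were labelled as treated with PBS. Line 7298 carries the SCL/LMO1 transgenes, whose promoter is not given in the sources used here, and lines 2883 and 2869 have the genotype Mcm2cre/cre. All cultures came from thymic leukaemias and grew in DMEM with fetal bovine serum. Each culture was sequenced once, so a resistant derivative is a single selected population of its line. P-values here measure the spread between cultures, and nothing in the labels says that any culture was grown or selected again. The other 10 libraries hold 8 derivatives resistant to etoposide, methotrexate, prednisone or vincristine and 2 parental cultures of other Mcm2cre/cre lines.

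Cytarabine is a cytidine analogue that enters cells through nucleoside transporters and does nothing until it is phosphorylated. Deoxycytidine kinase, encoded by Dck, adds the first phosphate, and further kinases make the triphosphate that is built into DNA and stops replication. Nucleotidases and deaminases act in the other direction: Dctd encodes deoxycytidylate deaminase, which turns dCMP into dUMP and can deaminate the monophosphate of cytarabine.

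Both genes had 0 reads in at least 1 derivative, so the start of each is shown. The promoters are those of RefSeq on GRCm38.p6, 250 bases before to 50 bases after the annotated start, both on the + strand and with CG dinucleotides in capitals. The Dck stretch is chr5:88764763-88765062 and the Dctd stretch is chr8:48098842-48099141. CG on 1 strand is CG on the other, so both strands are covered.
Dck: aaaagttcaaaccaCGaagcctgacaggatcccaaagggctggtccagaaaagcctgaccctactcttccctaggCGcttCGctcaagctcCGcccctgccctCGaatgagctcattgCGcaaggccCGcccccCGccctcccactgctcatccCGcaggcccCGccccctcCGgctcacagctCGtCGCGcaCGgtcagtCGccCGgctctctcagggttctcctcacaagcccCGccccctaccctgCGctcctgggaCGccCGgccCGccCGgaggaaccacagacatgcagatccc
Dctd: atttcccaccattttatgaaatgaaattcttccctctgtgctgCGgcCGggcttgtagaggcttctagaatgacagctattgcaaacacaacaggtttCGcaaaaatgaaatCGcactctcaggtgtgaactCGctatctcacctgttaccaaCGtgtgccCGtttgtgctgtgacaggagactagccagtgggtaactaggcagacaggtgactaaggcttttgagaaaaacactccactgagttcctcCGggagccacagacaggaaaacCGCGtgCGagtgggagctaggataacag
Dck had 23 CG dinucleotides in this stretch, and 21.5% of the 32851 mouse promoters in the table had as many. Dctd had 11, a number that 41.4% of promoters reached, against a median of 7. The counts describe the sequence only, since methylation was not measured.

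Sequencing depth, recovered from the smallest steps in the deposited values, was 16947000 to 17675000 reads in the cytarabine-resistant libraries and 12142000 to 13498000 reads in the parental libraries of the 3 lines. Depth thus separates the groups, and its part in small differences was not tested. All 16 libraries share 1 batch label. All 23 T-cell and thymocyte markers listed had an entry, with a summed level of 7615 to 10960 CPM, reads scaled to the library's total, in the cytarabine-resistant libraries and 7154 to 9997 CPM in the parental libraries. Among markers of other cells, 2 of 8 B-cell, 1 of 9 myeloid, 0 of 6 erythroid and 2 of 7 stromal or vascular genes had an entry. The B-cell genes summed to 110.2 to 174.1 CPM in cytarabine-resistant libraries and 37.4 to 130.0 CPM in parental libraries, nearly all from Ighm. Itgam was at 3.63 to 17.5 CPM in cytarabine-resistant and 10.2 to 19.8 CPM in parental libraries. The stromal or vascular genes Pdgfrb and Pecam1 summed to 60.1 to 293.3 CPM in cytarabine-resistant and 49.4 to 105.1 CPM in parental libraries. Lmo1, an oncogene of the transgenes, was at 222 CPM in the resistant derivative of line 7298 and 270 CPM in its parental culture, and below 0.01 CPM in both cultures of the other lines. Tal1, the mouse gene of SCL, was at 0.0622 CPM in that derivative and 0.00793 CPM in that parental culture. It was below 1 CPM in every library of the 3 lines. The cultures of line 2883 stand apart in their T-cell receptor segments, described last, so shared results are also given for lines 7298 and 2869 alone.

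Dck was lower in all 3 cytarabine-resistant derivatives, to very different degrees. It was at 0.00566 CPM in the derivative of line 7298, which is 0 reads with the small constant that the authors' values hold, at 34.9 CPM in that of line 2883 and at 90.3 CPM in that of line 2869. The parental cultures had 103, 162 and 156 CPM in the same order of lines. All 3 cytarabine-resistant values lay below all 5 parental values and below all 8 values of derivatives resistant to other drugs, which had 99.4 to 197 CPM. The gene spans chr5:88764996-88783281 on the + strand of mm10. In the model fitted to all genes, Dck was lower by a log2 difference of -2.98 ± 0.83 (SE, n = 3 derivatives; unadjusted p = 0.00539), and the limma adjusted p was 0.494. Against the derivatives resistant to other drugs the log2 difference was -2.62 ± 0.74 (unadjusted p = 0.00392, limma adjusted p = 0.786). In a bulk library, fewer cells that hold a transcript and less transcript per cell cannot be told apart.

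In line 7298 the loss of Dck transcripts took in its neighbours. Grsf1, which encodes an RNA-binding protein of mitochondrial RNA granules, and Mob1b, a co-activator of the kinases of the Hippo pathway, are the next genes in the table and had 0 reads as well. Grsf1 had 0.00566 CPM in the derivative and 109 CPM in the parental culture, at least 642.3-fold lower, with the floor at 3 reads per library. Mob1b had 0.00566 CPM in the derivative and 69.5 CPM in the parental culture, at least 409.2-fold lower. The 3 genes are consecutive entries and cover chr5:88659448-88783281, a stretch of 123.8 kb.

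The genes on either side of the stretch were not at 0. Upstream, Rufy3 was at 3.85 CPM in the derivative of line 7298 and 16.4 CPM in its parental culture, a ratio of 0.234 (95% exact interval 0.176 to 0.310, counting error only). Utp3, beyond Rufy3, was at 54.7 CPM in the derivative and 88.4 CPM in the parental culture. Downstream, Slc4a4, a sodium bicarbonate cotransporter, was at 15.5 CPM in the derivative and 0.563 CPM in the parental culture, a ratio of 27.8 (13.3 to 69.9). The next entries after Slc4a4 were near parental: Cox18 was at 13.2 CPM in the derivative and 16.7 CPM in the parental culture, and Ankrd17 was at 207 and 237 CPM in the same order.

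In lines 2883 and 2869 the neighbours were transcribed. Grsf1 was at 65.7 CPM in the derivative of line 2883 and 119 CPM in its parental culture, and at 79.1 CPM in the derivative of line 2869 and 97.1 CPM in its parental culture. Mob1b was at 67.7 CPM in the derivative and 82.9 CPM in the parental culture of line 2883, and at 32.3 CPM in the derivative and 55.3 CPM in the parental culture of line 2869. Dck was at 0.216 of its parental level in line 2883 (0.197 to 0.237), Grsf1 at 0.554 (0.512 to 0.5995) and Mob1b at 0.817 (0.7505 to 0.890). In line 2869 Mob1b and Dck had almost the same ratio, 0.584 (0.522 to 0.653) and 0.578 (0.541 to 0.618). Grsf1 was at 0.815 (0.754 to 0.880) there.

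**Figure D1:**
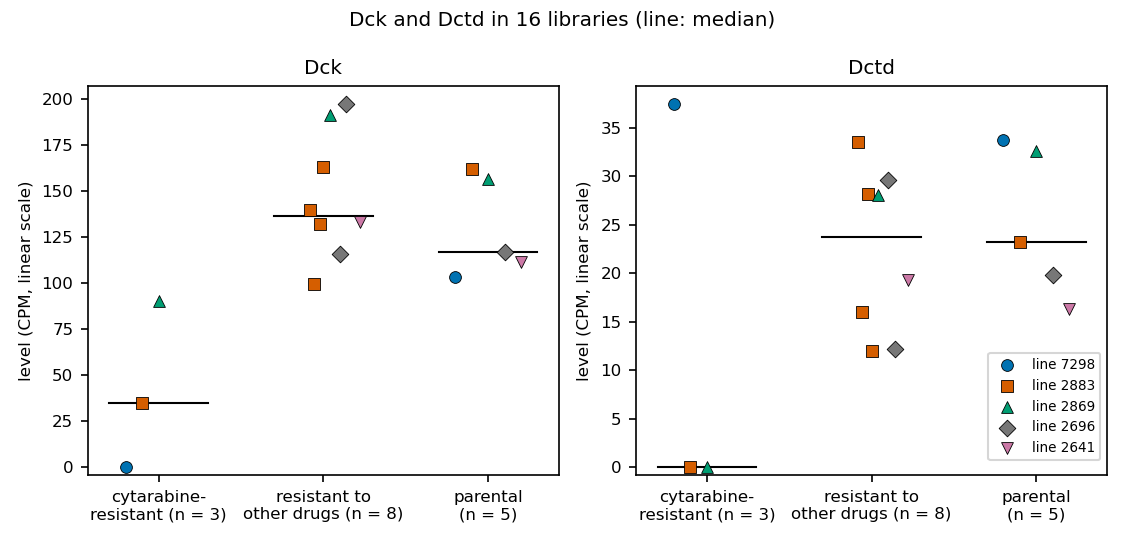
Levels of Dck (left) and Dctd (right) in CPM on a linear scale, for the 3 cytarabine-resistant libraries, the 8 libraries resistant to other drugs and the 5 parental libraries; each point is 1 library, its colour and shape give the line, and the horizontal bar is the group's median. The 3 cytarabine-resistant points for Dck lie below all others, and for Dctd the derivatives of lines 2883 and 2869 lie at 0 while that of line 7298 is at 37.5 CPM.

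Dctd showed the opposite pattern over the lines. It was at 37.5 CPM in the cytarabine-resistant derivative of line 7298, 0.00582 CPM in that of line 2883 and 0.00590 CPM in that of line 2869, the last 2 being 0 reads. The parental cultures had 33.8, 23.2 and 32.6 CPM in the same order of lines. Transcripts were thus lost in the 2 Mcm2cre/cre lines, at least 133.1-fold in line 2883 and 184.1-fold in line 2869, and kept in the line that had lost Dck, at a ratio of 1.11 (0.980 to 1.25). The 8 derivatives resistant to other drugs had 12.0 to 33.5 CPM and the 5 parental cultures 16.3 to 33.8 CPM, with no overlap with the 2 derivatives at 0. Dctd spans chr8:48099092-48153233 on the + strand.

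Of all genes, Dctd was the only gene at 10 CPM or more in the parental culture and at 0.1 CPM or less in the derivative in more than 1 pair. Its log2 difference was -3.35 ± 0.78 against parental cultures (SE, n = 3 derivatives; unadjusted p = 0.00177, limma adjusted p = 0.494). Against derivatives resistant to other drugs the difference was -3.67 ± 0.73 (unadjusted p = 0.000289, limma adjusted p = 0.786). Dctd was the 1 gene that limma called when the derivative or the parental culture of line 7298 was left out, with an adjusted p of 0.00192 and 0.00189. Either omission takes out the pair that kept Dctd, so these are not separate results. Over all alternatives its adjusted p against parental cultures lay between 0.00189 and 0.954.

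Transcripts of most entries beside Dctd were still present. The next entry downstream, Gm9892, was at 152 CPM in the derivative of line 2883 and 197 CPM in its parental culture, and at 97.5 CPM in the derivative of line 2869 and 182 CPM in its parental culture, a ratio of 0.537 (0.504 to 0.572) in line 2869. The downstream entries are not close to Dctd, which ends at chr8:48153233: Gm9892 starts at chr8:52196065 and Aga at chr8:53511727. Cdkn2aip was at 34.1 CPM in the derivative of line 2883 and 44.9 CPM in its parental culture, and at 38.6 CPM in the derivative of line 2869 and 33.9 CPM in its parental culture. Aga, which encodes a lysosomal glycosylasparaginase, was at 13.4 CPM in the derivative and 7.91 CPM in the parental culture of line 2883, and at 13.9 CPM in the derivative and 10.6 CPM in the parental culture of line 2869. Wwc2, the entry just upstream, was the exception in line 2883, at 0.00581 CPM in the derivative and 9.64 CPM in the parental culture, and it had no more than 0.01 CPM in either culture of line 2869. In the other derivatives of line 2883, Wwc2 was at 0.00685 CPM with vincristine, 0.220 with methotrexate, 22.03 with etoposide and 41.8 with prednisone. Dctd was at 12.0, 16.1, 33.5 and 28.15 CPM in the same order, and at 23.2 CPM in the parental culture of line 2883. A link between the levels of Wwc2 and Dctd was not tested.

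**Figure D2:**
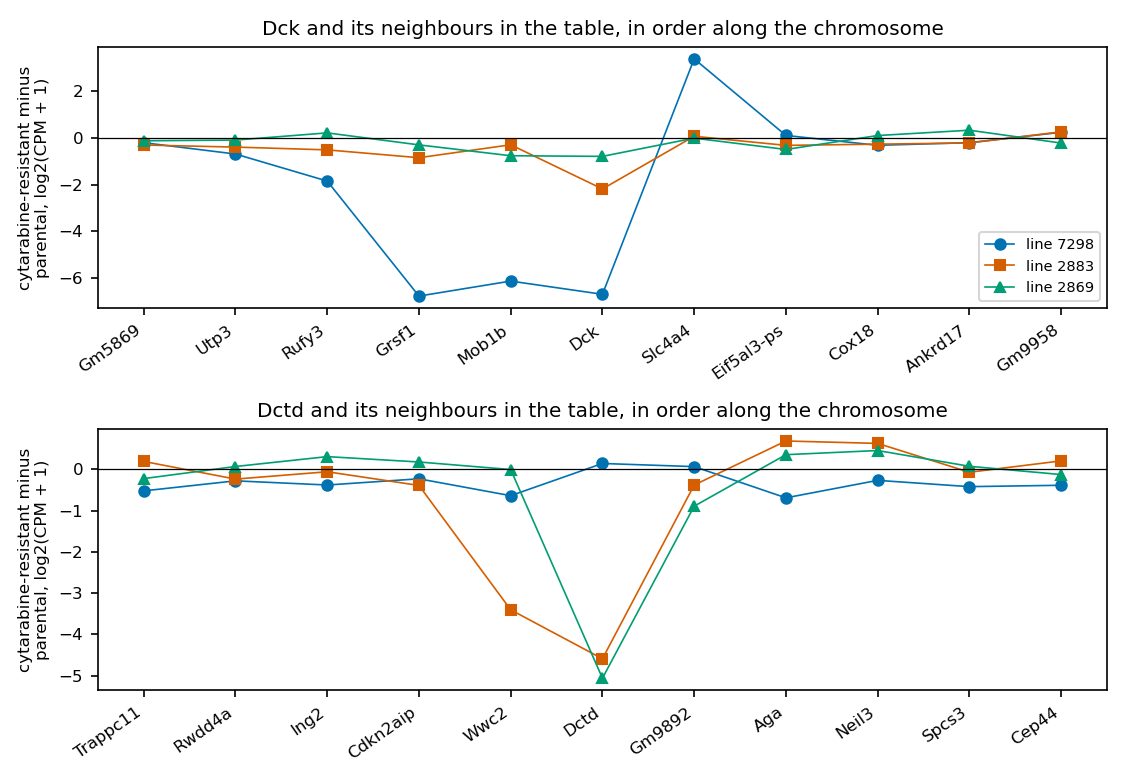
Difference between the cytarabine-resistant and the parental library of each line, in log2(CPM + 1), for Dck (upper panel) and Dctd (lower panel) and the 5 table entries on each side, in order along the chromosome with even spacing; lines join points for reading only. Grsf1, Mob1b and Dck drop together in line 7298 and Slc4a4 stands above 0, whereas in the lower panel Dctd drops in lines 2883 and 2869, with Wwc2 also low in line 2883 and Gm9892 at -0.89 in line 2869.

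Of the 18 genes listed for uptake, phosphorylation, inactivation and export, 16 had an entry. Among these, 3 were higher and 3 lower in 3 of 3 pairs, beside 15.1% and 14.8% of all 13261 genes tested. Limma called 0 of the 16, with 2 higher and 3 lower at an unadjusted p under 0.05, and over all genes it called 0 of 13261 (0.0%), with 713 higher (5.38%) and 536 lower (4.04%) at that p. The 3 lower ones at that p were Dck, Dctd and Nt5c3. Against derivatives resistant to other drugs, Dck and Dctd were also lower at a limma unadjusted p under 0.05, and Nt5c3 was not. With median-of-ratios scaling the split over all genes was 606 higher and 638 lower, and after quantile normalization 581 and 627.

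For uptake, the equilibrative transporter Slc29a1 was at 225, 206 and 179 CPM in the derivatives of lines 7298, 2883 and 2869 and at 208, 236 and 212 CPM in the parental cultures. These values overlap, and the ratios were 1.08 (1.03 to 1.14), 0.873 (0.831 to 0.918) and 0.845 (0.803 to 0.890). The concentrative transporter Slc28a2 was at 11.1, 44.0 and 24.4 CPM in the derivatives and at 28.2, 24.4 and 5.78 CPM in the parental cultures. Its ratios had no common direction, at 0.394 (0.329 to 0.470), 1.81 (1.58 to 2.07) and 4.23 (3.31 to 5.46). Slc29a2, a low equilibrative transporter, was at 0.289, 1.93 and 3.19 CPM in the derivatives and 1.12, 1.74 and 1.04 CPM in the parental cultures. For the later phosphorylation steps, Cmpk1, the UMP-CMP kinase, was at 161, 111 and 104 CPM in the derivatives and 126, 115 and 125 CPM in the parental cultures. The nucleoside diphosphate kinase Nme2 was at 118, 154 and 209 CPM in the derivatives and 123, 201 and 197 CPM in the parental cultures, and it is so similar to its neighbour Nme1 that the 2 may share reads.

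Among enzymes that remove phosphate, Nt5c2, a cytosolic nucleotidase for purine monophosphates that is mutated in relapsed human leukaemia, was at 72.8, 164 and 114 CPM in the derivatives and 63.8, 91.0 and 95.6 CPM in the parental cultures. It was higher in each pair and by most in line 2883, by log2 differences of 0.19, 0.84 and 0.25 (limma unadjusted p = 0.0266, adjusted p = 0.507). Nt5c2 was also above the parental culture in 7 derivatives resistant to other drugs and below it in 1. Against those derivatives the log2 difference was 0.26 ± 0.17 (limma unadjusted p = 0.162, adjusted p = 0.805). The pyrimidine nucleotidase Nt5c3 was at 41.8, 28.9 and 30.8 CPM in the derivatives and 45.5, 39.9 and 41.3 CPM in the parental cultures, lower in each pair. It was also below the parental culture in 7 derivatives resistant to other drugs and above it in 1. Nt5c3 differed from those derivatives by a log2 difference of -0.096 ± 0.20 (limma unadjusted p = 0.644, adjusted p = 0.937). Its relative Nt5c3b was lower too, with 60.0, 51.4 and 28.0 CPM in the derivatives and 61.2, 61.5 and 65.1 CPM in the parental cultures, a ratio of 0.43 in line 2869. Of the exporters, Abcc5 was at 81.5, 137 and 84.1 CPM in the derivatives and 45.8, 130 and 63.5 CPM in the parental cultures, and its largest difference, in line 7298, lies in the chromosome 16 stretch described below. Abcc4 was at 31.9, 52.2 and 52.2 CPM in the derivatives and 26.3, 45.8 and 49.3 CPM in the parental cultures, and Abcg2 was below 1 CPM in all 6 libraries.

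The smallest p-values of the comparison with parental cultures belonged to the 5 genes per direction below, none of them called (limma adjusted p = 0.494 for each, n = 3 derivatives). Sh3bp5, an adaptor protein that binds the kinase Btk, had the largest fitted difference of these, at 1.53, 2.39 and 4.90 CPM in the derivatives of lines 7298, 2883 and 2869 and 9.76, 9.07 and 20.9 CPM in the parental cultures. Pgk1, given with glycolysis below, was uneven, with log2 differences of -1.78, -0.22 and -1.93 in lines 7298, 2883 and 2869. Slc39a10, a zinc importer of lymphocytes, was at 55.5, 47.2 and 46.7 CPM in the derivatives of lines 7298, 2883 and 2869 and 94.99, 102 and 80.8 CPM in the parental cultures, and the 2 groups do not overlap. Eif3m, a subunit of the translation initiation factor eIF3, was at 117, 132 and 131 CPM in the derivatives and 165, 193 and 195 CPM in the parental cultures, again without overlap. Entpd5, an endoplasmic reticulum UDPase, was at 113, 121 and 118 CPM in the derivatives and 77.2, 78.4 and 66.5 CPM in the parental cultures. All 8 derivatives resistant to other drugs were also below their parental cultures for Slc39a10, Eif3m and Commd3, and above them for Patz1 and Dvl2. Of these 8, the 4 derivatives of line 2883 and the 1 of line 2869 share their parental library with a cytarabine pair.

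Patz1, a zinc-finger repressor of thymocyte genes, was at 310, 323 and 220 CPM in the derivatives and 227, 122 and 103 CPM in the parental cultures. Rasgrp2, an exchange factor for Rap1, was at 21.6, 42.9 and 62.9 CPM in the derivatives and 12.1, 16.0 and 30.8 CPM in the parental cultures. E2f8, an atypical repressor of the E2F family that peaks in S phase, was at 134, 160 and 118 CPM in the derivatives and 88.5, 72.1 and 65.5 CPM in the parental cultures, with no overlap between the groups. Dvl2, which relays Wnt signals, was at 65.3, 94.7 and 73.4 CPM in the derivatives and 44.9, 49.5 and 34.3 CPM in the parental cultures.

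Large differences shared by all 3 pairs were rare. At least 2-fold on the log2(CPM + 1) scale, 9 genes were higher in 3 of 3 pairs (0.0679% of genes tested) and 5 were lower (0.0377%). For comparison, single pairs passed that fold for 181 higher (1.36%) and 493 lower (3.72%) genes in line 7298, 1305 (9.84%) and 730 (5.5%) in line 2883, and 824 (6.21%) and 385 (2.9%) in line 2869. In the pairs of lines 7298 and 2869, 24.4% of genes were higher in both and 26.5% lower in both.

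Slc22a3, a polyspecific organic cation transporter, had the largest weakest-pair difference of all genes. It was at 1.54, 0.355 and 0.00590 CPM in the derivatives of lines 7298, 2883 and 2869 and 32.04, 15.6 and 3.64 CPM in the parental cultures, log2 differences of -3.70, -3.61 and -2.21. In the derivatives resistant to other drugs it spanned 0.00581 to 95.8 CPM. Id1 and Id2, inhibitors of E-protein transcription factors, were both lower in each pair. Id2 was at 58.6, 30.4 and 15.1 CPM in the derivatives and 111, 64.1 and 47.4 CPM in the parental cultures, and Id1 was at 0.00566, 13.0 and 1.84 CPM in the derivatives and 1.04, 33.1 and 42.8 CPM in the parental cultures. Slfn5, of the Schlafen family of growth regulators, was at 0.571, 1.58 and 0.95 CPM in the derivatives and 1.75, 7.26 and 6.82 CPM in the parental cultures. Sh3bp5 (above), Ankrd37, a target of the hypoxia-inducible factors, Tmbim1, Plac8, Rxra and Zfp93 were the other genes of this kind, with log2 differences of -2.71 to -0.80 in single pairs.

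On the higher side, Egr1, an immediate early gene downstream of the T-cell receptor, was at 30.7, 23.2 and 11.0 CPM in the derivatives and 15.4, 2.64 and 4.60 CPM in the parental cultures. Fcgr2b, the inhibitory receptor for IgG, was at 2.72, 349 and 30.04 CPM in the derivatives and 0.246, 28.4 and 10.2 CPM in the parental cultures. Spib, a transcription factor of the ETS family, was at 36.2, 4.83 and 3.43 CPM in the derivatives and 5.00, 1.90 and 0.452 CPM in the parental cultures. Mrtfb, a co-activator of serum response factor, was at 24.2, 58.2 and 22.7 CPM in the derivatives and 9.20, 23.2 and 4.16 CPM in the parental cultures, and it also lies in the chromosome 16 stretch of line 7298. Cpsf4l, Map1a, Zdhhc14, Camk1d and Olfr314 were others of this kind, most of them at low levels and with log2 differences of 1.00 to 3.39 in single pairs. These genes were selected for a common sign, so their agreement between pairs is a description.

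**Figure D3:**
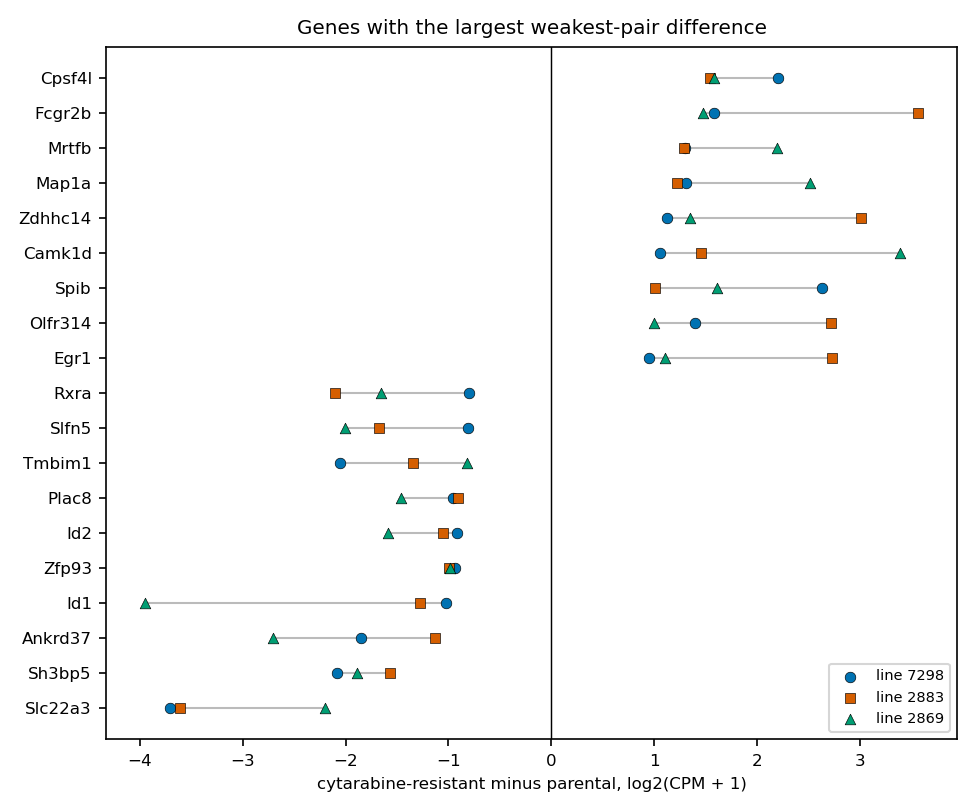
Differences between the cytarabine-resistant and the parental library of lines 7298, 2883 and 2869, in log2(CPM + 1), for 10 lower and 9 higher genes among those whose smallest pair difference was largest; each point is 1 pair and the grey bar spans the 3 pairs. Slc22a3 lies at -3.70, -3.61 and -2.21 and Fcgr2b at 1.58, 3.57 and 1.48, whereas Zfp93 differs by nearly the same amount in each pair on this scale. Zfp93 was at 0.183 to 7.27 CPM, where the added 1 CPM shrinks differences, and its ratios on reads were 0.458, 0.344 and 0.133.

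Each pair also had losses and gains of transcripts that the other cytarabine pairs did not all share. Genes at 10 CPM or more in the parental culture and 0.1 CPM or less in the derivative numbered 5 in line 7298 (0.0553% of genes at that level), 22 in line 2883 (0.239%) and 12 in line 2869 (0.135%). The reverse held for 0 genes in line 7298, 24 in line 2883 (0.255%) and 12 in line 2869 (0.132%). The 8 derivatives resistant to other drugs had 8 to 43 losses and 2 to 23 gains by the same rule. Derivatives of lines 2883 and 2869 are set beside those of the same line resistant to other drugs, with which they share the parental library.

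In line 7298, Eif4g3, a scaffold of translation initiation, was at 0.0622 CPM in the derivative and 33.5 CPM in the parental culture, and Ccdc91 was at 0.00566 CPM in the derivative and 17.5 CPM in the parental culture. With Grsf1, Mob1b and Dck they are all 5 losses of this line. Txnip, an inhibitor of thioredoxin, was not lost but lower, at 7.81 CPM in the derivative and 165 CPM in the parental culture. Among the largest differences upward were Adam19, a membrane protease, at 215 CPM in the derivative and 12.8 CPM in the parental culture, and Ptprf, a receptor tyrosine phosphatase, at 132 CPM in the derivative and 8.73 CPM in the parental culture. Ptcra, the pre-T-cell receptor alpha chain, was at 96.6 CPM in the derivative of line 7298 and 13.4 CPM in its parental culture.

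In line 2883, Myo10, an unconventional myosin of filopodia, had the largest difference of all, at 0.00581 CPM in the derivative and 400 CPM in the parental culture. The 4 other derivatives of the line were also below it, by log2 differences of -8.64 to -4.12, and the other 4 parental cultures had 0.00793 to 33.8 CPM, so the parental culture of line 2883 stands apart. Its neighbour Basp1 was at 0.00582 CPM in the derivative and 34.9 CPM in the parental culture, and the pair covers chr15:25363277-25813673. Basp1 had log2 differences of -5.16, -2.06, -3.51 and -5.16 in the etoposide, methotrexate, prednisone and vincristine derivatives of the line. The chemokine receptor Ccr9, which guides thymocytes and gut-homing T cells, was at 325 CPM in the derivative and 2.31 CPM in the parental culture. Itgae, the integrin CD103 of intraepithelial T cells, was at 279 CPM in the derivative and 3.06 CPM in the parental culture. Both were also higher in the 4 other derivatives of line 2883, Ccr9 at 10.1 to 78.7 CPM and Itgae at 8.68 to 51.3 CPM. The gained genes of this line included Cd163l1, at 84.1 CPM in the derivative and 0.00824 CPM in the parental culture, and the tyrosine kinase Ptk2b, at 48.1 CPM in the derivative and 0.00823 CPM in the parental culture. In the 4 other derivatives of the line Cd163l1 was at 1.45 to 4.92 CPM and Ptk2b at 0.064 to 37.4 CPM, the highest with etoposide.

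In line 2869, Il6st, the signalling chain gp130 of the interleukin-6 receptor family, was at 0.183 CPM in the derivative and 74.8 CPM in the parental culture. The metallothionein Mt1 was at 0.00590 CPM in the derivative and 32.2 CPM in the parental culture, and Slc45a3 was at 0.00590 CPM in the derivative and 41.9 CPM in the parental culture. The vincristine derivative of line 2869 had 0.238 CPM of Mt1, 48.8 CPM of Slc45a3 and 39.9 CPM of Il6st. Gnas, the alpha subunit of the stimulatory G protein, was at 408 CPM in the derivative and 1.56 CPM in the parental culture, while the other 4 libraries had 446 to 513 CPM. The low value is thus that of the parental culture, and the vincristine derivative of the line had 133 CPM. Nlrc5, the transactivator of MHC class I genes, was at 49.5 CPM in the derivative and 0.0815 CPM in the parental culture, with 0.0639 CPM in the vincristine derivative.

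Pathway lists were described by their medians beside the medians of all genes tested, which were -0.00, 0.04 and 0.05 in lines 7298, 2883 and 2869. Cytosolic ribosomal proteins were lower in nearly all cases: 72 of 82 were lower in 3 of 3 pairs and 0 were higher, beside 14.8% and 15.1% of all genes. Their median log2 difference was -0.29 in line 7298, -0.51 in line 2883 and -0.36 in line 2869. Limma called 0 of them, with 32 lower and 0 higher at an unadjusted p under 0.05, beside 4.04% and 5.38% of all genes. In lines 7298 and 2869 alone, 72 of 82 were lower in both pairs. Rpl22, which is deleted in some human T-ALL, was at 355, 263 and 381 CPM in the derivatives and 504, 481 and 536 CPM in the parental cultures. Rpl35 was at 121, 48.1 and 64.3 CPM in the derivatives and 150, 97.1 and 112 CPM in the parental cultures. Against derivatives resistant to other drugs, the median fitted log2 difference of the 82 genes was -0.17. At a limma unadjusted p under 0.05, 3 were lower and 0 higher in that contrast, beside 1.89% and 4.43% of all genes. Most derivatives resistant to other drugs were also below their parental culture for Rpl22 and Rpl35. Only the methotrexate derivative of line 2883 was higher for Rpl22 (log2 difference 0.36). For Rpl35 only the prednisone derivative of line 2641 was (0.02). Rpl22l1, another of the 82, had log2 differences of -1.11 to 0.995 in the derivatives resistant to other drugs. Ribosomal protein genes have many near-identical processed copies, and how the authors' counting shared reads among them is not given in the sources used here.

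Genes of glycolysis and the hypoxia response divided the 3 pairs. Their median log2 difference was -1.24 in line 7298, where 25 of 36 were at least 2-fold lower, and -0.48 in line 2869, where 8 were, but 0.24 in line 2883, where 26 of 36 were higher. Of all genes, 3.72% in line 7298 and 2.9% in line 2869 were at least 2-fold lower, and 7045 of 13261 were higher in line 2883. In lines 7298 and 2869 together 30 of 36 were lower in both, beside 26.5% of all genes, and 9 of 36 were lower in 3 of 3 pairs. Limma called 0, with 13 lower and 0 higher at an unadjusted p under 0.05. Pgk1, phosphoglycerate kinase, was at 251, 340 and 179 CPM in the derivatives and 864, 397 and 686 CPM in the parental cultures. Eno1, enolase, was at 253, 362 and 213 CPM in the derivatives and 1076, 369 and 821 CPM in the parental cultures. Each of the 2 was also lower in 5 of the 8 derivatives resistant to other drugs and higher in 3. In the vincristine derivatives of lines 2883, 2696 and 2869, Pgk1 had log2 differences of -1.24, -2.66 and -1.57. Eno1 had -1.06, -3.25 and -1.56 there. In the etoposide, methotrexate and prednisone derivatives of line 2883, Pgk1 had 0.75, 0.84 and 0.19, and Eno1 had 1.42, 1.58 and 0.62. What set the direction was not tested. The mitophagy receptor Bnip3, chosen after its values were seen, was at 8.54 CPM in the derivative and 90.7 CPM in the parental culture of line 7298, and at 58.5 CPM in the derivative and 35.5 CPM in the parental culture of line 2883. Culture density and medium oxygen were not recorded in the labels.

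Replication genes also differed between the pairs, and Mcm2 among them. Of 37 genes for polymerases, clamp loaders and the replicative helicase, 32 were higher in line 7298 and 26 in line 2869, whereas 28 were lower in line 2883. Of all 13261 genes, 5853 were higher in line 7298, 7125 were higher in line 2869 and 6216 were lower in line 2883. The medians were small, 0.20, 0.11 and -0.21 for lines 7298, 2869 and 2883. Mcm2, the helicase subunit altered in the Mcm2cre/cre lines, was at 446, 97.9 and 187 CPM in the derivatives of lines 7298, 2883 and 2869 and 320, 96.8 and 114 CPM in the parental cultures. The largest upward differences in line 7298 were those of Mcm4, Cdc45 and Rfc4, named after their values were seen, and these 3 genes lie in its chromosome 16 stretch. They were the 3 of 37 at least 2-fold higher in that line, and 1 of 37 was at least 2-fold lower. Mcm4 was at 372 CPM in the derivative and 145 CPM in the parental culture. Without these 3 genes, 29 of 34 were higher in line 7298 and the median was 0.20.

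Genes of chromatin regulators and tumour suppressors known in T-ALL were higher in 3 of 3 pairs for 9 of 22 and lower for 1, beside 15.1% and 14.8% of all genes, with medians of 0.18, 0.35 and 0.40. At an unadjusted p under 0.05, 5 were higher and 0 lower, beside 5.38% and 4.04% of all genes. Kmt2a, a histone methyltransferase, was at 409, 567 and 423 CPM in the derivatives and 347, 358 and 241 CPM in the parental cultures. Tet3, a 5-methylcytosine dioxygenase, was at 177, 309 and 309 CPM in the derivatives and 157, 188 and 166 CPM in the parental cultures. Dnmt3a, a DNA methyltransferase, was below 0.01 CPM in both cultures of line 2869 only, at 0.00590 CPM in the derivative and 0.00741 CPM in the parental culture.

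Among DNA repair genes, 11 of 42 for breaks and crosslinks were higher in 3 of 3 pairs and 3 were lower, beside 15.1% higher and 14.8% lower of all genes, the shares for every count of this paragraph. Prkdc, the catalytic subunit of DNA-PK, had log2 differences of 0.70, 0.45 and 0.29 in lines 7298, 2883 and 2869, and it lies in the chromosome 16 stretch. Brca2 had differences of 0.07, 0.47 and 0.97, and Fancl, the ubiquitin ligase of the Fanconi anaemia complex, of -0.11, -1.21 and -1.17. For mismatch and base excision repair, 4 of 25 were higher in 3 of 3 pairs, among them the scaffold Xrcc1 with log2 differences of 0.47, 0.54 and 0.86, and 0 were lower. Translesion synthesis genes had 2 of 20 higher and 3 lower in 3 of 3 pairs. Replication checkpoint genes had 6 of 22 higher and 0 lower, including Clspn, which recruits Chk1, with log2 differences of 0.44, 0.22 and 0.82. Deoxynucleotide supply genes had 3 of 25 higher and 1 lower, and the 2 cytidine deaminases with an entry had 0 higher and 1 lower.

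The other lists are described by their medians or by counts. The integrated stress response had a median of 0.80 in line 2883, 0.17 in line 7298 and -0.21 in line 2869, and T-cell receptor signalling had 0.60 in line 2883, -0.08 in line 7298 and 0.22 in line 2869. Targets of p53 had a median of -0.31 in line 7298, 0.12 in line 2883 and 0.19 in line 2869, and Trp53 itself had log2 differences of 0.52, 0.44 and 0.48 in lines 7298, 2883 and 2869. The 13 mitochondrially encoded genes had medians of -0.63, -0.14 and 0.15. Sterol synthesis (5 of 24 higher and 2 lower in 3 of 3 pairs), mitosis (8 and 3 of 25), G1/S and E2F genes (5 and 3 of 33), Notch (5 and 3 of 19), interferon and DNA sensing (4 and 2 of 25), the BCL2 family (3 and 0 of 12) and drug efflux (2 and 0 of 13) had these counts beside 15.1% higher and 14.8% lower of all genes. The mitosis medians were -0.03, 0.24 and 0.02 in lines 7298, 2883 and 2869. At a limma unadjusted p under 0.05, 4 of 25 mitosis genes were higher against parental cultures and 0 lower, beside 5.38% and 4.04% of all genes. Against derivatives resistant to other drugs, 8 were higher and 0 lower, beside 4.43% and 1.89%, and limma called 0. Schlafen genes had 0 of 5 higher and 1 lower in 3 of 3 pairs.

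**Figure D4:**
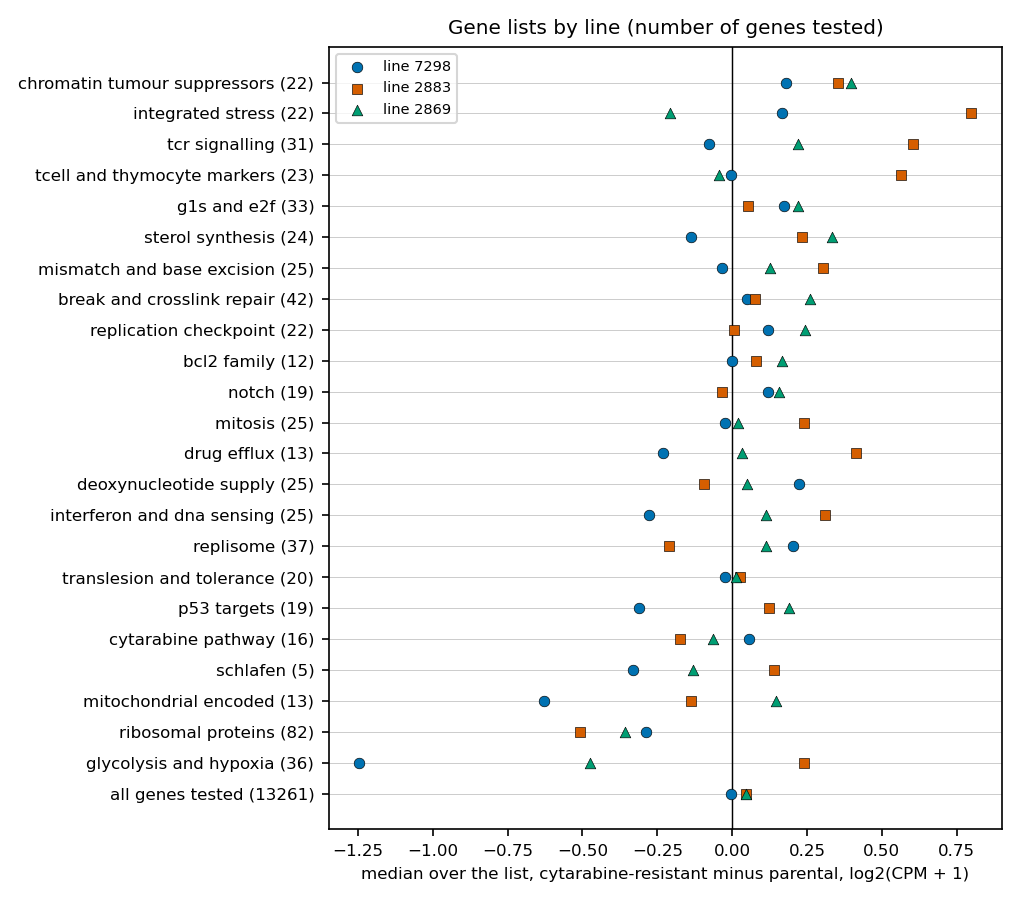
Median difference between the cytarabine-resistant and the parental library of each line, in log2(CPM + 1), over the tested genes of each list with at least 5 of them (number in brackets) and over all genes tested (lowest line); each point is 1 pair. Ribosomal proteins lie at -0.29, -0.51 and -0.36 in lines 7298, 2883 and 2869, while glycolysis and hypoxia genes lie at -1.24, 0.24 and -0.48.

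Expression along chromosomes showed 2 long stretches, one in each of 2 pairs. For genes with a mean of at least 5 CPM in the 6 libraries, the median log2 difference was taken in windows of 20 neighbouring genes that overlapped by 10, and runs of at least 3 windows past 0.4 of one sign were sought. The stretches were chosen by these values and carry no test. The longest in line 7298 ran over 13 windows of chromosome 16, chr16:4886249-31948494. There 128 of 140 genes were higher in the derivative and 12 were lower, with a median of 0.83, against -0.02 for the other 197 genes of that chromosome. The same stretch had medians of 0.02 in line 2883 and 0.01 in line 2869. In line 2883 a run of 21 windows on chromosome 13, chr13:8885501-70637634, had 189 of 220 genes lower and 31 higher, with a median of -0.83, against 0.12 for the other 170 genes. In lines 7298 and 2869 it had medians of -0.04 and -0.00.

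Neither stretch was found in the cytarabine pairs alone. The chromosome 13 stretch had medians of -0.80 in the etoposide, -0.79 in the vincristine, -0.47 in the prednisone and -0.26 in the methotrexate derivative of line 2883, all of which share the 1 parental library with the cytarabine derivative. The chromosome 16 stretch had medians of 0.52 and 0.42 in the etoposide and vincristine derivatives of line 2696, which also share a parental library. The other 7 runs were of 3 or 4 windows, 1 in line 7298, 3 in line 2883 and 3 in line 2869. Transcript levels were measured here, and DNA copy number was not.

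**Figure D5:**
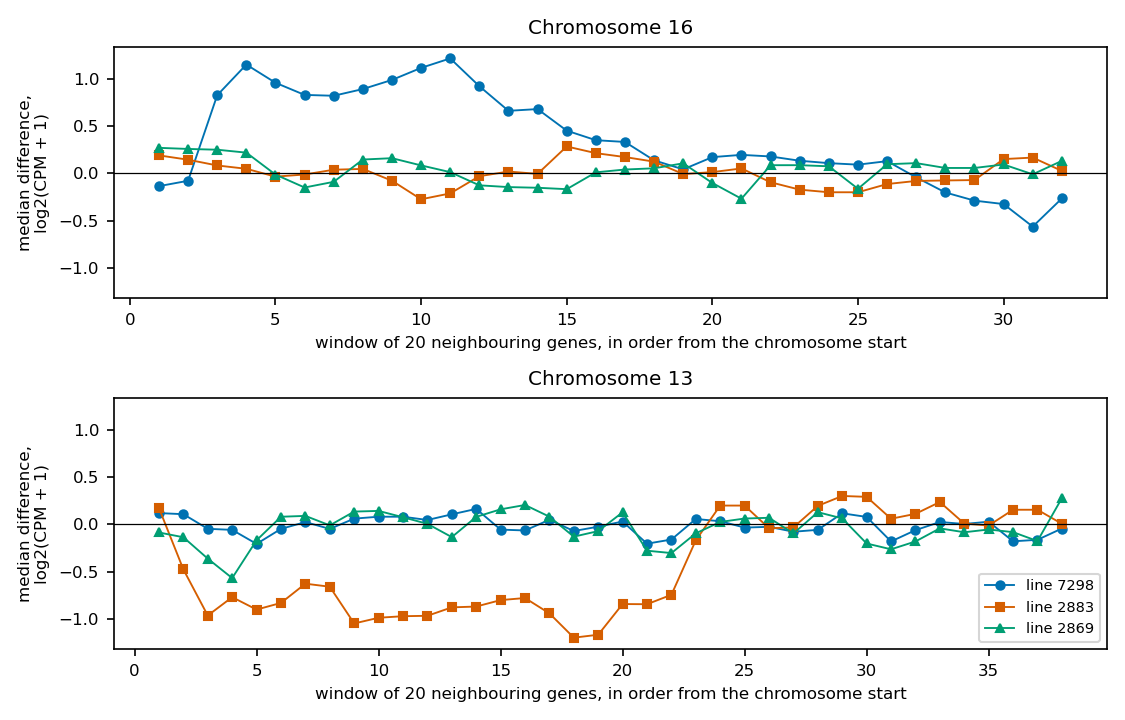
Median difference between the cytarabine-resistant and the parental library, in log2(CPM + 1), in windows of 20 neighbouring genes along chromosome 16 (upper panel) and chromosome 13 (lower panel), numbered from the chromosome start; each line joins the windows of 1 pair. Line 7298 lies above 0.4 over 13 neighbouring windows of chromosome 16 and line 2883 below -0.4 over 21 of chromosome 13. Of the other pairs, line 2869 also passes that level in 1 window of the chromosome 13 stretch, at -0.57.

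In line 7298 the same T-cell receptor beta-chain variable segment led in both cultures: Trbv17 took 78.4% of Trbv CPM in the derivative and 69.2% in the parental culture. In line 2869 Trbv19 took 79.9% in the derivative and 68.3% in the parental culture. In line 2883 Trbv12-1 took 91.0% in the derivative, at 208 CPM, and had 23.2 CPM in the parental culture. There Trbv19 led with 50.1% at 105 CPM, and it was at 0.00582 CPM in the derivative. The other derivatives of line 2883 were also led by segments other than Trbv19, Trbv12-2 with etoposide (99.1%) and vincristine (93.9%) and Trbv31 with methotrexate (91.8%) and prednisone (67.8%). Trbc1 was at 503 CPM in the derivative and 124 CPM in the parental culture of line 2883, and Trbc2 at 119 CPM in the derivative and 328 CPM in the parental culture.

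Gamma-chain segments differed as well. In line 2869, Trgc2 was at 0.242 CPM in the derivative and 206 CPM in the parental culture, Trgc4 at 0.596 CPM in the derivative and 160 CPM in the parental culture, and Trgv2 at 0.124 CPM in the derivative and 66.8 CPM in the parental culture. In line 2883, Trgc1 was at 44.5 CPM in the derivative and 0.00824 CPM in the parental culture. In line 7298 Trgc2 was at 154 CPM in the derivative and 173 CPM in the parental culture. Gene segments of a family are similar, and reads may be shared among them. The derivative of each line still correlated best with its own parental culture over all genes tested, with r on the log2 scale of 0.980, 0.928 and 0.961 for lines 7298, 2883 and 2869 and 0.885, 0.899 and 0.906 for the nearest other parental culture. These r are across genes, which are not independent, and the libraries share the same gene set.

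The contrast with derivatives resistant to other drugs used the parental libraries of lines 2883 and 2869 on both sides, that of line 7298 on the cytarabine side alone, and those of lines 2696 and 2641 on the other side alone. Limma called 0 of 13261 genes (0.0%), with 588 higher (4.43%) and 251 lower (1.89%) at an unadjusted p under 0.05 and a smallest adjusted p of 0.786. That split depends on scaling and was 440 to 347 with median-of-ratios scaling and 399 to 380 after quantile normalization. Dctd had the smallest p among lower genes. Among higher genes, Tlr7, an endosomal sensor of single-stranded RNA, was at 8.27, 6.64 and 4.73 CPM in the cytarabine-resistant derivatives of lines 7298, 2883 and 2869, at 0.00581 to 0.691 CPM in the 8 other derivatives, and at 4.13, 0.173 and 1.56 CPM in the parental cultures. No other derivative reached the lowest cytarabine-resistant value. The axonemal dynein Dnah8 was at 63.6, 194 and 78.0 CPM in the cytarabine-resistant derivatives and 31.8 to 111 CPM in the others, and Cd8b1, the CD8 beta chain, was at 42.2, 217 and 304 CPM in the cytarabine-resistant derivatives and 17.0 to 99.1 CPM in the others. Ikzf3, a lymphoid transcription factor, and Slx4, a nuclease scaffold, follow in the closing section. On the lower side, Prkra, an activator of the kinase PKR, was at 5.72, 5.07 and 5.08 CPM in the cytarabine-resistant derivatives and 6.17 to 30.02 CPM in the others, and the Hippo kinase Stk3 was at 19.2, 19.6 and 28.4 CPM in the cytarabine-resistant derivatives and 31.2 to 57.6 CPM in the others. The phosphodiesterase Pde9a and the retrieval receptor Kdelr2 completed the 5 lower genes with the smallest p, and the groups overlap for both.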

How the data were processed

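The data are a table of 13474 genes in 16 libraries, made with an Illumina stranded mRNA kit per the labels' protocols. The deposited values are FPKM computed by the authors with cutadapt, STAR and Partek on mm10, per the submitters' processing notes. Their versions, the annotation and whether counting used strand: not given in the sources used here. The length in the file is the whole gene span for all 13474 genes, so genes with long introns have small FPKM, and the values hold a constant of 0.1 read per gene. Multiplying by that length gave CPM. Depth came from the smallest steps, but only 70.5% to 75.7% of values were whole reads within 0.05, so no count test was run. Ratios on these reads have 95% exact intervals, and a count of 0 is bounded with 3 reads per library. They cover counting error only.

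Genes with at least 1 CPM in at least 2 libraries (13261) entered a limma fit (version 3.58.1, R 4.3.3, eBayes with a trend, two-sided, Benjamini-Hochberg threshold 0.05) on log2(CPM + 1), a scale that understates differences of low genes. The model had a term per line and per drug (6 residual degrees of freedom), or a single term for the other 4 drugs (9) for the contrast with them; the spread was estimated over all 16 libraries. The line pairs the samples per the labels: over genes, the deviations of each derivative from its group mean correlated with those of its own parental culture at 0.837, 0.165 and 0.616 for lines 7298, 2883 and 2869. The code was tested on simulated data. Python 3.11.15 made the descriptions. Of 13201 symbols found in GENCODE vM21, 13080 had the same coordinates. The pairs, 28 gene lists and 652 listed genes were chosen with earlier results of these data known. Named genes are the 5 per direction with the smallest p in each contrast (against parental cultures, with 1 sign in 3 pairs), the 10 per direction with the largest weakest-pair difference, the 6 per direction and pair with the largest difference, list members, lost and gained genes, and neighbours of Dck and Dctd; other genes are said to be chosen after their values were seen. Predicted genes and receptor segments were counted but not named by these rules, and a result that these rules name is not reported here.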

Additional observations from a re-analysis of the deposited data

Results flagged for a closer look

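Ikzf3 and Slx4 were higher in 3 of 3 cytarabine-resistant derivatives and lower in 8 of 8 derivatives resistant to other drugs, each against the parental culture of its line. For Ikzf3, a lymphoid transcription factor of the Ikaros family, the smallest of the 3 cytarabine differences was 0.26 on the log2 scale. It was at 207, 197 and 137 CPM in the cytarabine-resistant derivatives of lines 7298, 2883 and 2869 and at 39.0 to 148 CPM in the other derivatives. Limma gave a difference of 1.25 ± 0.26 (unadjusted p = 0.000368, adjusted p = 0.786), which was not called. For Slx4, a scaffold of structure-specific nucleases, the smallest cytarabine difference was 0.19. It was at 27.6, 72.4 and 88.9 CPM in the cytarabine-resistant derivatives and at 24.3 to 50.1 CPM in the other derivatives, with a limma difference of 0.70 ± 0.15 (unadjusted p = 0.000617, adjusted p = 0.786). Some of the 8 lower values were near 0, with differences of -0.04 for Ikzf3 and -0.01 and -0.05 for Slx4 nearest to it. The parental libraries of lines 2883 and 2869 serve both sets of derivatives, and 7 genes among the 13261 tested had such opposite signs in all 11 derivatives. Both genes were picked from these same values, so their signs are a description. How many genes would show such signs by chance was not tested.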

How the results depend on the processing

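Limma called 0 genes against parental cultures and 0 against other drugs under the other pseudocounts, FPKM, no filter, both other scalings, no trend and the other models. Leaving out 1 cytarabine-resistant or parental library at a time gave 0 to 1 called genes in each comparison. The 1 was Dctd, without either library of line 7298, and either omission takes out the same pair. Of the other derivatives only that resistant to methotrexate was left out alone, against other drugs, with 0 called. The line pairs the samples; with no replicate block limma called 0 in both, with 386 higher and 345 lower genes against parental cultures at an unadjusted p under 0.05. At that p, the fit of the 6 libraries alone gave 458 and 351, and leaving out the cytarabine-resistant derivative of line 2883 gave 382 and 275. Leaving out line 2883, an alternative added after its receptor segments were seen, gave 0 called in both, with 352 higher and 298 lower genes against parental cultures at an unadjusted p under 0.05. All 12 genes with a fitted difference against parental cultures and all 11 against other drugs kept their direction in the 226 and 204 refitted values. Of 915 pair values and list medians recomputed on another scale or scaling, 104 moved by at least the SD over the 3 pairs and 21 had another sign. Ribosomal proteins stayed lower in 3 of 3 pairs for 65 to 74 of 82 genes. One library per culture and 3 pairs limit the tests; the 0 counts limit transcripts, not cells.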

Other observations

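Some genes gained in the cytarabine-resistant derivative of line 2883, named after their values were seen, have known roles in lymphocytes or leukaemia, and most were also present in other derivatives of the line. Lmo2, a T-ALL oncogene related to Lmo1, was at 13.3 CPM in the cytarabine-resistant derivative and 0.00824 CPM in the parental culture, and at 8.50 CPM in the vincristine derivative. Blk, a Src-family kinase best known from B cells, was at 39.4 CPM in the cytarabine-resistant derivative and 0.00824 CPM in the parental culture, with 10.2 CPM in the methotrexate and 4.73 CPM in the vincristine derivative. Its neighbour Fam167a was at 15.7 CPM in the cytarabine-resistant derivative and 0.00824 CPM in the parental culture, with 3.06 CPM in the methotrexate and 8.16 CPM in the vincristine derivative. P2rx7, an ATP-gated channel, was at 30.3 CPM in the cytarabine-resistant derivative and 0.0906 CPM in the parental culture, and at 0.555 to 2.50 CPM in the other derivatives of the line. The leading Trbv segment of each of these derivatives differs from that of the parental culture, and the part of that difference in these values was not tested.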
